A study of Mus musculus with 6 samples.

Results

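The NR4A orphan nuclear receptors are the 3 genes Nr4a1, Nr4a2 and Nr4a3. They were found by symbol among the 39527 genes of a deposited comparison of mouse lung ILC2s. All 3 were among the 14961 genes with an adjusted p, which are called tested here. Group 2 innate lymphoid cells (ILC2s) are tissue lymphocytes that make type 2 cytokines without an antigen receptor. They were sorted from lungs after IL-33, an alarmin of damaged epithelium, had been given for 4 days, and their RNA was sequenced. WT (R5/+) and KO (R5/+LKB1f/f) mice supplied 3 samples each, so that both groups carry the R5 allele and both received IL-33. LKB1 is the kinase encoded by Stk11 and is floxed in KO. Every sample combined the cells of 3 to 4 mice. The labels name neither the ages of the mice nor the promoter that drives the recombinase, and give no untreated group. The series title names ILC2 exhaustion and lung cancer metastasis as the subject. Values per sample were not used here, so each gene has 1 deposited fold change with its standard error (SE) and no value by sample, and the depth behind each sample was not used.

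NR4A receptors (Nur77, Nurr1 and NOR-1) are transcription factors of the nuclear receptor superfamily whose ligand pocket is filled by bulky side chains, so that their activity is set mainly by how much protein is made. They bind as monomers to the NBRE element, and Nr4a1 and Nr4a2 also pair with retinoid X receptors. The genes are immediate early genes, switched on within a short time by calcium (through calcineurin, NFAT and MEF2 factors), by cAMP (through CREB and its CRTC coactivators, which the LKB1-dependent SIK kinases hold in the cytoplasm) and by mitogens. In T cells they are known for their response to antigen receptor signals and for their part in tolerance and exhaustion.

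The 250 bases upstream of the RefSeq start of each gene are shown because 1 feature is common to all 3, the core TGACG of the cAMP response element (CRE), which CREB binds. Sequences are from RefSeq on GRCm38.p6, matched by symbol for 3 of 3 genes, written 5′ to 3′ on the gene's strand. Capitals mark the CRE core on either strand (TGACG or its complement CGTCA) and, in Nr4a1, the AP-1-like element TGCGTCA that contains it. The windows are chr15:101266596-101266845 (plus strand), chr2:57124004-57124253 (minus strand) and chr4:48045055-48045182 (plus strand).
Nr4a1: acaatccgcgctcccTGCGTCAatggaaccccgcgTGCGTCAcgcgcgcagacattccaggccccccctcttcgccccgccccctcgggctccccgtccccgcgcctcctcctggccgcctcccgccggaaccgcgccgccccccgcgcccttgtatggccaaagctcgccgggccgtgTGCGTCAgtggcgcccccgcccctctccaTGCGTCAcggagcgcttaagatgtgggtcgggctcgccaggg
Nr4a2: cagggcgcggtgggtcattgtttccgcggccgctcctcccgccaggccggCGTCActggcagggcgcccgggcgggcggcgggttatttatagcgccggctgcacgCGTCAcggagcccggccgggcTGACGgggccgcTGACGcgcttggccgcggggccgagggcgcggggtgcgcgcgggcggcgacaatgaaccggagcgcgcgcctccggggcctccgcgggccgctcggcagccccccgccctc
Nr4a3: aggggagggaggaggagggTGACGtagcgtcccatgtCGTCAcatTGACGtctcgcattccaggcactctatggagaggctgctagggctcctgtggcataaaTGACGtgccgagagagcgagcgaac
For Nr4a3 the first 128 of the 250 bases are printed, because GENCODE M21 starts the gene at 48045153, upstream of the RefSeq start, and the last of its 4 cores lies just inside that first exon.

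Each window held exactly 4 CRE cores. Of 32851 promoter windows of the same length, 17.8% held at least 1 core and 0.137% (45 windows) held 4 or more. These shares were not matched for GC content, which was 74.4% in the Nr4a1 window, 80% in that of Nr4a2 and 63.6% in that of Nr4a3. The arrangement differed among the 3 genes. In Nr4a1 all 4 cores lay inside a TGCGTCA element, in 2 pairs that began at positions -235 and -215 and at -71 and -42 from the start. For comparison, 1.75% of windows held at least 1 such element. In Nr4a2 the cores stood on both strands between positions -200 and -111, and in Nr4a3 between -231 and -147. The full palindrome TGACGTCA, present in 1.55% of windows, was in none of the 3. The Nr4a2 window also held 1 match to the MEF2 motif (2.92% of windows) and 1 to the NFAT core GGAAA (55.6% of windows), and the other two windows held neither. No window held the NBRE (AAAGGTCA), the CArG box of SRF or the AP-1 motif TGANTCA. All motifs were searched on both strands, and a match describes the letters only. The motifs were chosen after the windows had been seen. A second complete transcript of Nr4a2 starts at 57115038 and one of Nr4a1 at 101254269, and the bases upstream of these were not used here.

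**Figure D1:**
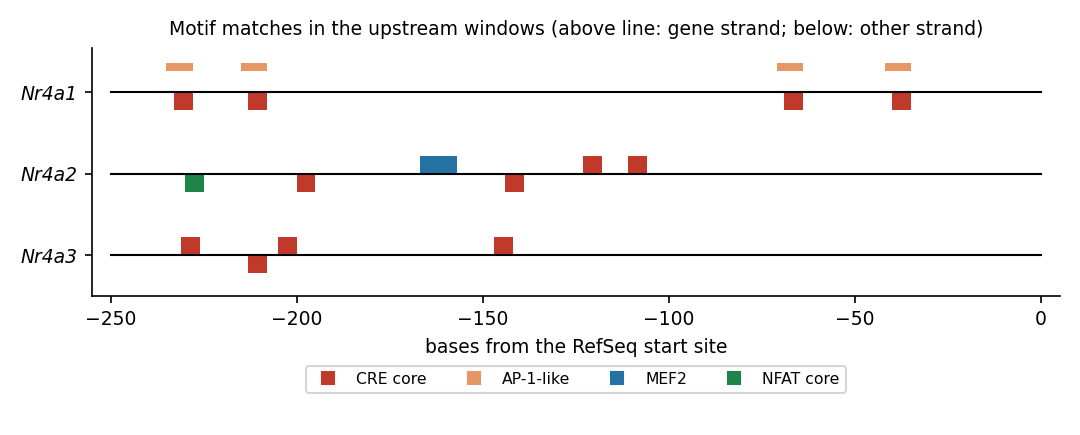
Motif matches in the 250 bases upstream of the RefSeq start of Nr4a1, Nr4a2 and Nr4a3, with distance from the start in bases on the x axis; blocks above a line are on the gene's strand and blocks below it on the other strand, except that the AP-1-like elements are drawn higher up. Each gene has 4 CRE cores, and all 4 of Nr4a1 coincide with an AP-1-like element.

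The genes lie on different chromosomes of mm10. Nr4a1 (ENSMUSG00000023034) spans 101254269 to 101274795 on chromosome 15, Nr4a2 (ENSMUSG00000026826) 57106830 to 57124003 on chromosome 2 and Nr4a3 (ENSMUSG00000028341) 48045153 to 48086447 on chromosome 4. Their coding sequences are 1803, 1794 and 1881 bases long, each in a transcript of 8 exons in GENCODE M21. No other annotated gene overlaps any of them in GENCODE M21. The longest identical coding stretches, found by script, show how far reads could be shared. Nr4a1 and Nr4a3 share 24 bases (coding positions 862 to 885 of Nr4a1), and Nr4a2 and Nr4a3 share 27 (coding positions 901 to 927 of Nr4a2).
Nr4a1 and Nr4a3: gagggctgcaagggcttcttcaag
Nr4a2 and Nr4a3: gcaaataaaaactgcccagtggacaag
No stretch of 50 bases was common to transcripts of any pair.

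The direction of the fold change is not stated. Stk11, the gene floxed in KO, had a negative log2 fold change of -1.34 ± 0.30 (SE) (the authors' deposited table), with 0.000103 as its adjusted p. Deletion would lower Stk11 in KO, and this would make KO the numerator, while the order in which the labels name the comparison, WT before KO, would read the other way. Signs are therefore given as deposited, and a positive value is one opposite to that of Stk11.

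All 3 NR4A genes were positive at an adjusted p below 0.05. The background is 1644 positive genes among 14961 tested (11%) and 2024 negative ones (13.5%), or 24.5% called in all. Calls were more frequent among genes of similar abundance. Within 2-fold of the means of Nr4a1, Nr4a2 and Nr4a3, 30.8%, 15.5% and 19.2% of genes were positive. In either direction 30.8%, 40.3% and 46.9% of these genes were called. Nr4a1, which encodes Nur77, had a log2 fold change of 0.95 ± 0.19 (SE), or 1.94-fold with a 95% interval of 1.51 to 2.50, and an adjusted p of 7.54e-06 (the authors' deposited table). Nr4a2, which encodes Nurr1, had 1.17 ± 0.26 (SE), or 2.25-fold with an interval of 1.59 to 3.19, and an adjusted p of 9.28e-05 (the authors' deposited table). For Nr4a3, which encodes NOR-1, the value was 1.36 ± 0.51 (SE), or 2.56-fold with an interval of 1.29 to 5.10, and the adjusted p was 0.0338 (the authors' deposited table). The 3 intervals overlap pairwise, and the difference between members was not tested, since the covariance of their values is not known. Among tested genes, 92.9%, 95.3% and 96.7% had a lower fold change than Nr4a1, Nr4a2 and Nr4a3, respectively. By p-value the order was reversed, with Nr4a1 at rank 567, Nr4a2 at 877 and Nr4a3 at 3259 of the 14961 genes. When the same errors were used to test for an absolute log2 change above 0.5, none of the 3 passed, with adjusted p of 0.271, 0.196 and 0.976 (unadjusted 0.0145, 0.0092 and 0.0905), against 3.05% of tested genes that passed in either direction and 1.27% in the positive one. The call of Nr4a3 was lost when the p-values of the authors' deposited table were adjusted over all genes with a p-value (adjusted p = 0.087), whereas Nr4a1 and Nr4a2 kept theirs.

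**Figure D2:**
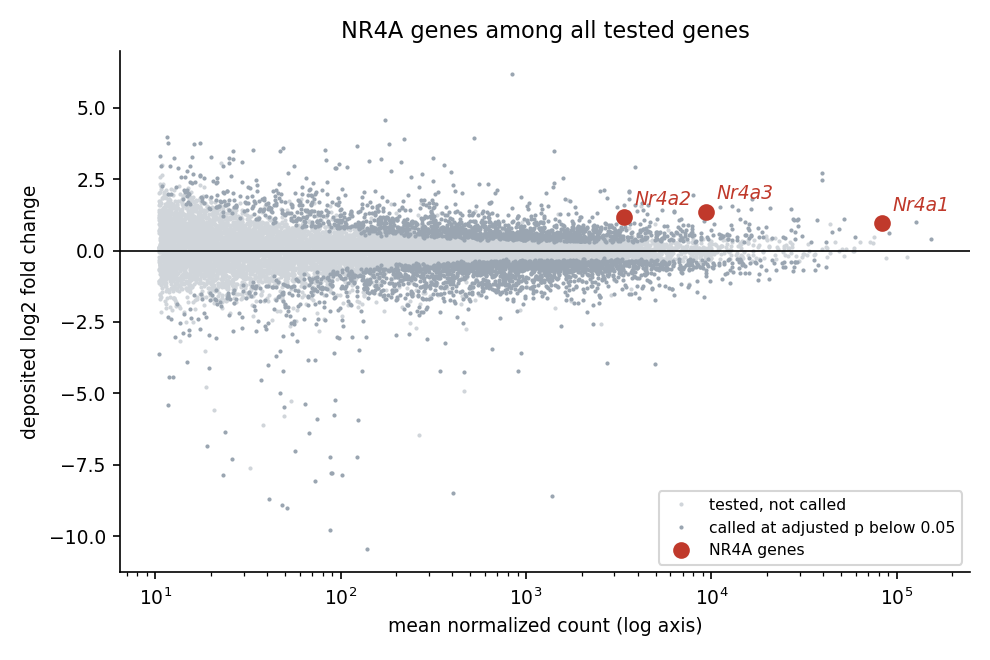
Deposited log2 fold change against the mean normalized count (log axis) of all 14961 tested genes, with called genes darker and the NR4A genes in red. The 3 genes lie at similar heights, between 0.95 and 1.36, and far to the right among abundant genes.

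The levels of the 3 receptors differed far more than their fold changes. The deposited mean, averaged over the libraries of the authors' fit, was 83021 normalized counts for Nr4a1, 9365 for Nr4a3 and 3391 for Nr4a2 (the authors' deposited table). That places Nr4a1 6th of all tested genes, next to Junb (75770 normalized counts (the authors' deposited table)), the AP-1 subunit that is itself an immediate early gene. Per kilobase of exonic length the means were 23660 for Nr4a1, 1564 for Nr4a3 and 835.4 for Nr4a2. On this per-length scale Nr4a1 stood 28.3-fold above Nr4a2 and 15.1-fold above Nr4a3, and Nr4a3 1.87-fold above Nr4a2. Without division by length the ratio of Nr4a1 to Nr4a3 was 8.87. Nr4a1 thus made up 90.8% of the family's summed level per kilobase, Nr4a3 6.0% and Nr4a2 3.21%. The deposited means carry no spread over samples, so whether neighbours in this order differ beyond it was not tested. In bulk samples fewer expressing cells and less RNA per cell cannot be told apart.

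The precision of the 3 values did not follow their abundance. An SE was set against the median SE of genes within 2-fold of the same mean. Nr4a1 had 1.20 times that median (26 genes), Nr4a2 1.83 times (1885 genes) and Nr4a3 3.68 times (546 genes). An SE at least as wide was found for 6 of the 26 genes near Nr4a1 and 42 of the 1885 near Nr4a2. The SE of Nr4a3 was 0.51 against a median of 0.138 in its neighbourhood, and 3 of the 546 genes had a wider one. Those were Igkc and Ighm, immunoglobulin genes of B and plasma cells, and Sftpc, the surfactant gene of alveolar type 2 epithelium. In 3664 of the 3708 tested genes with a mean of at least 1000 normalized counts, this ratio was at most 1.94. It was 2.63 or more in the other 44 (1.19%), with no gene in between. Nr4a3 belonged to the 44 and the other two receptors did not. Whether 1 library carries the wide error of Nr4a3 was not tested.

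**Figure D3:**
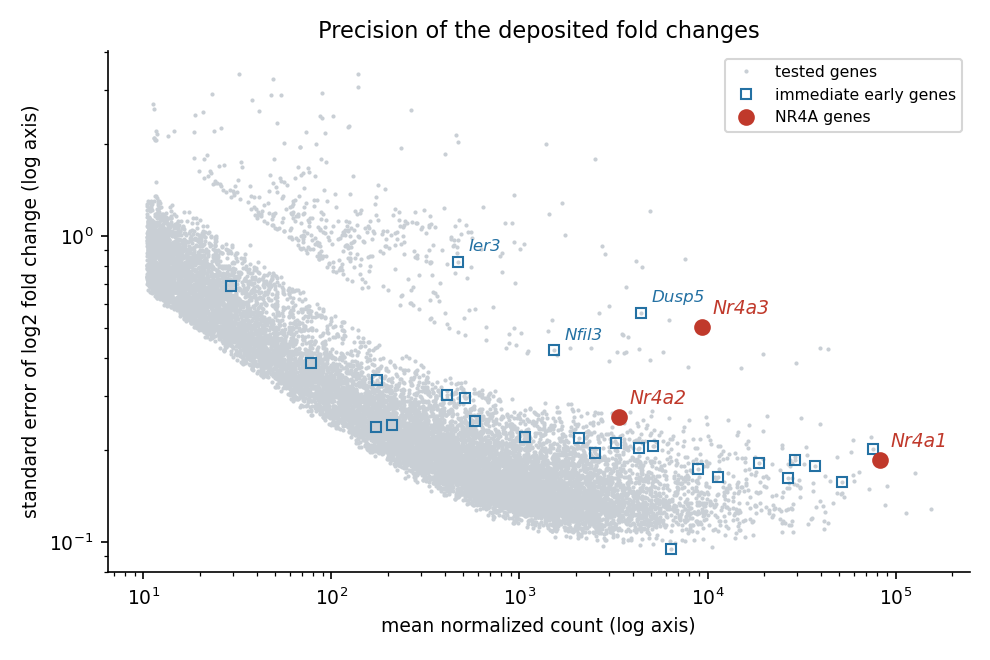
Standard error of the log2 fold change against the mean normalized count, both on log axes, for all tested genes (grey), immediate early genes (blue squares) and the NR4A genes (red). Nr4a3 lies in a thin band of wide errors above the main cloud, as do Dusp5, Nfil3 and Ier3. Nr4a1 and Nr4a2 lie in the cloud, Nr4a2 near its upper edge.

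Within the nuclear receptor superfamily the NR4A genes were among 9 called receptors, all of them positive. Of 46 other receptors 25 were tested, of which 6 were positive and 0 negative, against 11% and 13.5% of all tested genes. In either direction the 25 were thus called about as often as all tested genes (24.5%). The median log2 fold change of the 25 was 0.42, against -0.0056 over all tested genes. The retinoid X receptor Rxrg had 2.69 ± 0.22, the circadian repressor Nr1d1 1.47 ± 0.26 and the retinoic acid receptor Rarg 0.90 ± 0.17 (the authors' deposited table). Esr1, the estrogen receptor alpha, had the widest error of the named receptors, at 6.17 ± 1.11 (the authors' deposited table). The 2 called receptors beyond those were Nr1d2 (1.18), a relative of Nr1d1, and Nr3c1 (0.75), the glucocorticoid receptor (the authors' deposited table). Rora, the receptor that ILC2s need to develop, had 0.13 ± 0.19 without passing (the authors' deposited table). By fold change the members ranked 4th, 7th and 8th of the 28 tested receptors. By mean per kilobase they ranked 1st (Nr4a1), 4th (Nr4a3) and 6th (Nr4a2), with Rora 2nd and Nr3c1 3rd.

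**Figure D4:**
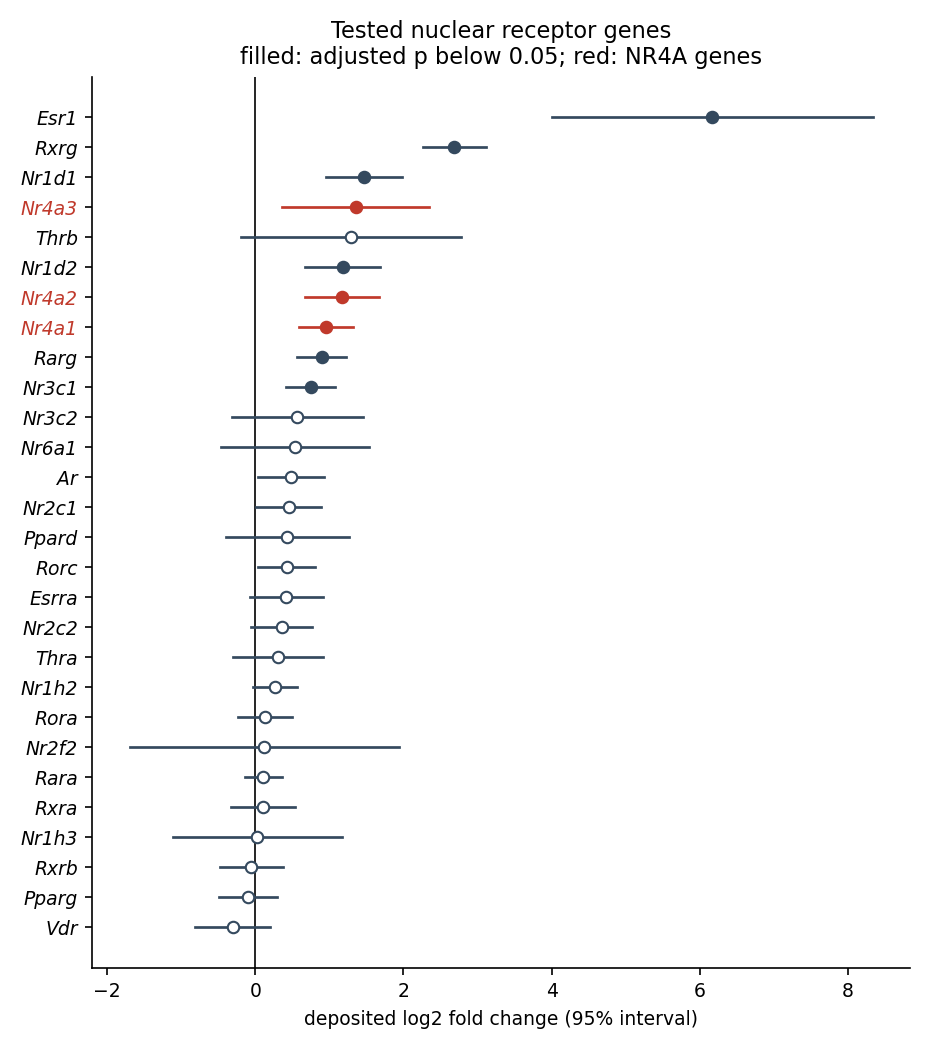
Deposited log2 fold change with its 95% interval for the 28 tested nuclear receptor genes, ordered by fold change; filled points passed an adjusted p of 0.05 and the NR4A genes are red. The NR4A intervals lie above 0 and overlap those of Nr1d1, Nr1d2, Rarg and Nr3c1, and the interval of Nr4a3 is the widest of the 3.

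Genes of the pathways known to switch on NR4A transcription, inhibitors of these pathways included, were taken as 4 lists. A count or median of such a list therefore does not give the direction of a pathway. The lists are to be read against the 11% of all tested genes called positive and 13.5% called negative. In the calcineurin and NFAT list 2 of 10 tested members were positive and 0 negative, with a median of 0.054, or 0.0087 with length and GC trends removed. They were the NFAT factor Nfatc2 (0.88 ± 0.20) and the calcineurin regulator Rcan3 (0.79 ± 0.20), while the most abundant member that did not pass, Nfatc3, had 0.11 ± 0.12 (the authors' deposited table). Among MEF2 factors and the class IIa histone deacetylases that repress them, 1 of 7 was positive, Mef2a at 0.36 ± 0.14, and Hdac5 had 0.26 ± 0.15 without passing (the authors' deposited table). The median, 0.31, was 0.15 with the trends removed. Mef2a lost its call at an adjusted p below 0.01, after adjustment over all genes with a p-value and after removal of length and GC trends. Of 9 members of the list of SRF and the ERK and RSK kinases 0 passed in the authors' fit. An unadjusted p below 0.05 was found for 3 of them, and for 5178 of all 14961 tested genes. Rps6ka1, an RSK kinase and the most abundant member, had 0.10 ± 0.12 (the authors' deposited table). With all genes that have a p-value included, the median of this list moved from 0.10 to -0.057.

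In the CREB, CRTC, SIK and PKA list 2 of 16 members were positive and 2 negative, with a median of 0.14 that turned to -0.015 when length and GC trends were removed. At an adjusted p below 0.01, 1 of each sign was left. Crem, whose locus also makes the cAMP-induced repressor ICER, had 0.71 ± 0.16 and the coactivator Ep300 0.31 ± 0.12 (the authors' deposited table). Prkar2b, a regulatory subunit of PKA, had -1.47 ± 0.28 and the kinase Sik3 -0.74 ± 0.25 (the authors' deposited table). Prkar1a, the most abundant member that did not pass, had 0.13 ± 0.13 (the authors' deposited table). Creb1 (-0.02) and the coactivators Crtc1, Crtc2 and Crtc3 (0.27, 0.26 and 0.18) did not pass either, nor did Sik1 (0.36) and Sik2 (0.12) (the authors' deposited table).

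Genes known to be induced together with the NR4A family were described as 2 lists. Of 26 other immediate early genes 14 were positive and 2 negative, where 11% and 13.5% of all tested genes were, with a median log2 fold change of 0.65 and 21 members above 0. Jun had 1.45 ± 0.16, Egr1 1.18 ± 0.17 and the antiproliferative gene Btg2 0.66 ± 0.10 (the authors' deposited table). Dusp1, a phosphatase that switches off MAP kinases, had 1.11 ± 0.16 (the authors' deposited table). Junb, the most abundant member that did not pass, had 0.48 ± 0.20 (the authors' deposited table). Dusp4 (-1.28) and Dusp2 (-1.15), which encode nuclear phosphatases of MAP kinases, were the negative members (the authors' deposited table). Immediate early genes also respond to tissue digestion and sorting, and the part of cell handling in these values was not tested. Earlier results on an overlapping list of these data were known when the list was drawn up, so that its direction is not independent evidence.

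Of 14 cAMP-induced genes 5 were positive and 0 negative, against 11% and 13.5% of all tested genes. The median of the 14 was 0.54, and 13 members lay above 0. Dusp1 and Crem stand in this list too, and Sik1 is likewise in 2 lists. The cAMP phosphodiesterase Pde4d had 1.36 ± 0.20, the stress phosphatase subunit Ppp1r15a 0.72 ± 0.15 and the clock gene Per1 0.89 ± 0.18 (the authors' deposited table). Rgs2, the most abundant member that did not pass, had 0.23 ± 0.20 (the authors' deposited table). CRE cores like those of the NR4A promoters were found in 8 of the 10 cAMP-induced genes with a promoter window and in 12 of 20 immediate early genes, against 19.8% of 27025 genes. The share was also above that of all genes in 7 of the other 8 lists, between 25% (other nuclear receptors) and 42.9% (the SRF list), and was 12.5% in the MEF2 list. At least 2 cores were found in 5 of the 10 and 5 of the 20, against 4.46% of genes, and Dusp1 is counted in both. This share was 23.1% in the CREB list (3 of 13), 16.7% in the dopamine neuron list and 14.3% in the retinoid X receptor list. It was 12.5% in the NFAT and MEF2 lists, 5% in other nuclear receptors and 0% in the SRF list and the T cell list.

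**Figure D5:**
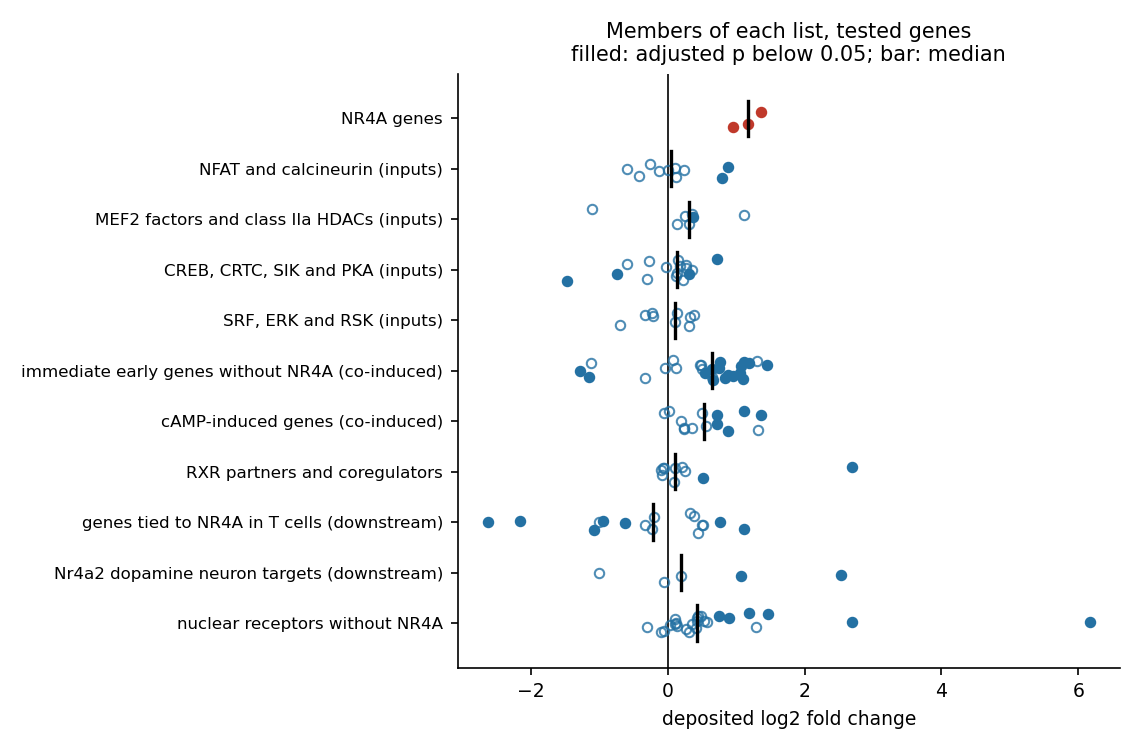
Deposited log2 fold change of each tested member of the lists, one row per list, with filled points past an adjusted p of 0.05 and bars at the median. The medians of the immediate early (0.65) and cAMP-induced genes (0.54) lie to the right of those of the 4 lists of inputs, which lie between 0.054 and 0.31 (with length and GC trends removed, -0.015 for the CREB list and 0.0087 to 0.15 for the others).

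The partners of NR4A receptors were called about as often as the 24.5% of all tested genes. Of 10 retinoid X receptors and coregulators 2 were positive and 0 negative, with a median of 0.10 that was -0.028 after removal of length and GC trends. Rxrg, named above, was one of them. Ncoa3, a coactivator and the most abundant member that did not pass, had 0.25 ± 0.12 (the authors' deposited table). The NBRE, which NR4A receptors bind, was found in the upstream windows of Rxrg and Rxra. They were 2 of the 7 genes of this list with a window, against 1.55% of all genes with a window. The 4 pathway lists and the 2 lists of genes induced together with the NR4A family held it in 0 windows. Both are shown with the element in capitals (chr1:167618164-167618193 and chr2:27709231-27709260, plus strand), and were chosen for print after the fold change of Rxrg was seen.
Rxrg: gatcggggttgAAAGGTCAgctgaaagctt
Rxra: tgggtggcaggAAAGGTCAgtcactctctg
Rxra had 0.11 ± 0.22 (the authors' deposited table), which did not pass. Of 126 tested genes with an NBRE in the window 8.73% were positive, against 11.4% of those without one. Whether NR4A receptors act on Rxrg or Rxra was not tested.

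Genes tied to NR4A factors in T cells went both ways. Past the threshold, 2 of 16 members were positive and 5 negative, against 11% and 13.5% of all tested genes. The median log2 fold change of the 16 was -0.22. Of the 13 members with an upstream window 0 held an NBRE. The HMG-box factor Tox had 0.77 ± 0.12 and Pdcd1, the gene of the inhibitory receptor PD-1, 1.12 ± 0.18 (the authors' deposited table). Tox2, a relative of Tox, had -2.63 ± 0.25 and the inhibitory receptor Ctla4 -2.15 ± 0.26 (the authors' deposited table). The other negative members were the inhibitory receptor Tigit and the transcription factors Batf and Irf4, between -1.07 and -0.62 (the authors' deposited table). Gadd45b, the most abundant member that did not pass, had 0.51 ± 0.41 (the authors' deposited table). Several of these values were known when the list was drawn up.

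Genes that Nr4a2 is known to switch on in dopamine neurons were a small list, with 5 of 7 tested. Of the 5, 2 were positive and 0 negative, against 11% and 13.5% of all tested genes. The median log2 fold change of the 5 was 0.19. The receptor tyrosine kinase Ret had 2.53 ± 0.18 and the vesicular monoamine transporter Slc18a2 1.08 ± 0.26, both positive (the authors' deposited table). Gch1, which makes the cofactor of tyrosine hydroxylase, had 0.19 ± 0.18 without passing (the authors' deposited table). Aldh1a1 (-1.01 ± 1.15) and Ddc (-0.05 ± 0.70) did not pass either (the authors' deposited table). Of the 6 genes of this list with an upstream window, Ddc was the 1 with an NBRE in it. Th, the tyrosine hydroxylase gene itself, had a mean of 0.540 normalized counts and no adjusted p (the authors' deposited table).

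Genes beside the NR4A loci were few. Within 100000 bases, 5 genes near Nr4a1 and 1 near Nr4a3 were tested and 0 near Nr4a2. Of these 6, 0 were called in the authors' fit, against 24.5% of all tested genes. An unadjusted p below 0.05 was found for 5178 of the 14961 tested genes and for 2 of the 6. Both lie near Nr4a1 and carry its sign, A330009N23Rik at 0.87 ± 0.36 and the activin receptor gene Acvr1b at 0.47 ± 0.22 (the authors' deposited table). The nearest tested gene to Nr4a1, the autophagy gene Atg101 at 9477 bases, had -0.11 ± 0.12 (the authors' deposited table). The nearest to Nr4a3, the SNARE gene Stx17 at 38468 bases, had 0.26 ± 0.20 (the authors' deposited table).

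The cells carried the markers of their label. All 14 ILC2 markers were tested and summed to 240762 mean normalized counts, with Gata3, the lineage factor, at 44552 (the authors' deposited table). Of these 14, 3 were positive (Kit 1.53, Gata3 0.63 and Icos 0.54) and 3 negative (Thy1 -1.98, Il13 -1.06 and Klrg1 -0.44) (the authors' deposited table). Among all tested genes 11% were positive and 13.5% negative. The median log2 fold change of the 14 was 0.13. T cell, B and plasma cell, macrophage and monocyte, neutrophil, and epithelial and endothelial markers summed to 2532, 8319, 5170, 1008 and 14504, and no marker was at 0. Of 34 tested markers of those other cells 7 were negative and 0 positive, against 13.5% and 11% of all tested genes. The median log2 fold change of the 34 was -0.70, and 28 of them lay below 0, the sign opposite to that of the NR4A genes. Their part in the NR4A values was not tested.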

How the data were processed

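RNA of sorted lung ILC2s was sequenced in 3 WT and 3 KO samples, which the labels call separate pools of 3 to 4 mice. Per the labels' protocols, a SMART-Seq HT kit gave the cDNA and TruePrep V2 the libraries. The submitters' processing notes name HISAT2, Cufflinks and mm10. No version, counting tool, annotation or strand setting is given in the sources used here. The authors deposited, per the file headers, 1 mean normalized count for each gene, which is a signal over the libraries they fitted. Beside it the authors deposited the log2 fold change, its SE, the score of the test and the p-value before and after adjustment. The score equals the fold change over its SE to within 2.4e-07, and the adjusted p a Benjamini-Hochberg adjustment to within 7.6e-07. Genes with an adjusted p (14961, lowest mean 10.46) were called tested, and those below 0.05 called. A further 12 columns of per-sample values matched no label and entered no result, and which libraries stand behind the p-values is not known. Precision therefore rests on the deposited SE (median 0.233) in place of sample depth.

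The 95% intervals assume a normal distribution. The members and the gene lists were chosen with earlier results of these data known. Named genes were the members, Stk11, up to 4 called members of smallest p in each list and its most abundant uncalled member; others were named after their values were seen. A gene that the rule selects is not reported here. Gene lengths and coordinates came from GENCODE M21, which held 99.2% of the gene identifiers; promoter windows came from RefSeq on GRCm38.p6, with 250 upstream bases. Alternatives were another threshold, adjustment, filter, centring, a test against a change of 0.5 and removal of lowess trends on length and GC content. The adjustment and tests were tested on simulated data. Software was statsmodels 0.14.6 and matplotlib 3.10.9 with scipy 1.17.1, numpy 2.4.6 and pandas 2.3.3 under Python 3.11.15.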

Additional observations from a re-analysis of the deposited data

How the results depend on the processing

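No paired analysis was possible because the per-sample columns carry names that match no label; for the same reason leaving out replicates, the replicate block and a count test of the samples were not run. The 3 receptors kept their positive sign under all 6 alternatives. Nr4a1 and Nr4a2 kept their calls in all but the test of an absolute log2 change above 0.5, where Nr4a1 (0.95), Nr4a2 (1.17) and Nr4a3 (1.36) all failed. Nr4a3, still at 1.36, also lost its call at an adjusted p below 0.01 and after adjustment over all 39444 genes with a p-value. Elsewhere its adjusted p lay between 0.0250 and 0.0389. With length and GC trends removed the values were 0.98, 1.26 and 1.34, and re-centred on the most abundant 25% of genes 0.99, 1.21 and 1.39. The count of called genes, 3668, became 2363 at an adjusted p below 0.01 and 456 in the test of a change above 0.5, and lay between 2853 and 3657 in the other 4 alternatives. Of 131 tested members of the 10 lists 33 were positive and 9 negative, against 11% and 13.5% of all tested genes. The counts were 28 and 7 at the stricter threshold, and 35 and 9 after re-centring. Sample depth was not used here, and the SE of Nr4a3, 0.51 at a mean of 9365 normalized counts, sets the width of its interval.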

Other observations

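Promoter letters were also set against the fold changes of the 10698 tested genes with a window, NR4A genes left out, of which 11.4% were positive and 14.4% negative. Of 322 genes with a full CRE palindrome 6.52% were positive and 15.5% negative. Of 3186 genes with at least 1 CRE core 10.5% were positive, and of 176 with at least 3 cores 7.95%. The 36 other tested genes with 4 or more cores, like the NR4A genes, included 5 positive and 3 negative ones, with a median log2 fold change of -0.034. Among them the inositol kinase gene Ip6k1 had 0.63 ± 0.23, the elongation factor gene Aff4 0.63 ± 0.23 and Ogdh, a subunit of the oxoglutarate dehydrogenase complex, -0.37 ± 0.13 (the authors' deposited table). Of 126 genes with an NBRE 8.73% were positive and 13.5% negative. The highest positive share, 15.4% of 603 genes, was that of the AP-1 motif TGANTCA, followed by MEF2 with 14.9% of 215. These shares are descriptions, and genes with a motif also differ in base composition and abundance.

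The 44 abundant genes with an SE set apart from the rest, Nr4a3 among them, held 12 positive and 6 negative genes. Of all tested genes 11% were positive and 13.5% negative. In either direction, 40.3% of the 1885 genes within 2-fold of the mean of Nr4a2 were called. For the 546 genes near Nr4a3 the share was 46.9%. A few are named here, chosen after their values were seen. The activation marker Cd69 had 1.01 ± 0.37 and Txnip, an inhibitor of thioredoxin, 1.42 ± 0.43, both positive, and the heat shock gene Hspa1b had 0.92 ± 0.43 without passing (the authors' deposited table). Gadd45b, Dusp5 and Nfil3 also stood there, with SEs of 0.41, 0.56 and 0.42 (the authors' deposited table), as did Igkc, Sftpc and Lyz2, with SEs of 1.21, 0.84 and 0.80. Which libraries widen these errors was not tested.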
